A study of Sus scrofa with 61 samples.

Results

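The mitochondrially encoded subunits of respiratory complexes III, IV and V were measured in fetal pig muscle by 75 of the 60305 probes of a one-colour Agilent array. The probes were those whose gene name in the scanner files was COX1 (25 probes), CYTB (21), COX3 (14), ATP6 (9), COX2 (5) or ATP8 (1). All 75 were among the 42436 probes kept for testing, and all 75 were well above background on each of the 61 arrays.

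Each array held the Cy3-labelled RNA of the longissimus lumborum muscle of 1 fetus, from sows of the Large White (LW) or the Meishan (MS) breed. Purebred LW and MS fetuses and both reciprocal crosses were sampled at day 90 (d90) and day 110 (d110) of gestation. LWMS fetuses had an MS sow and an LW boar, whereas MSLW fetuses had an LW sow and an MS boar. Each of the 4 genotypes had 8 fetuses at d90, and at d110 there were 9 LW, 7 MS, 8 LWMS and 5 MSLW fetuses. Fetuses of MS sows therefore numbered 16 at d90 and 15 at d110, and those of LW sows 16 and 14. All fetuses were males taken by caesarean from litters sired with mixed semen, and since the labels do not give the sow of each fetus, littermates were counted as separate samples and the spread between fetuses of a group may be smaller than that between litters. All 7 skeletal muscle markers looked for were well above background on all 61 arrays. Per array, 34346 to 45683 probes were well above background. One array, MSLW d90 replicate 2, stood apart with a median correlation of 0.962 with its own group, against at least 0.978 for the other arrays, and it held 752 non-uniform spots, among them all 16 such spots of the member probes. LW d90 replicate 8 held 802 and MSLW d90 replicate 8 held 537 non-uniform spots, none of them on a member probe. Leaving out each of these 3 arrays gave 61 to 62 member calls for age, 32 to 33 for the breed of the sow at d90 and 29 at d110, where all arrays gave 62, 31 and 29.

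Mitochondria carry a small circular genome, inherited from the dam, which encodes a few core subunits of the respiratory chain, while all other subunits come from nuclear genes. Cytochrome b (CYTB) is the redox core of complex III, COX1, COX2 and COX3 form the core of complex IV (cytochrome c oxidase), and ATP6 and ATP8 belong to the membrane part of complex V (ATP synthase). Mitochondrial RNA is transcribed as long precursors that are then cut into shorter RNAs, and skeletal muscle holds large amounts of it. In the reciprocal design, the breed of the sow is also the breed of the mitochondrial genome.

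Probes of the same gene overlapped in sequence, so that probes which differ by single bases could be compared within an array. Of the 75 probes, 60 overlapped another probe of their gene, in 68 pairs on the same strand and 1 pair on opposite strands. The sequences below are those of the probes on which the results turn. They are 60 bases long, as deposited in the scanner files, and capitals mark the bases that differ by a substitution from an overlapping probe shown here. Positions are counted from 1 at the 5′ end of the first probe named.

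The first pair holds the COX1 probe with the largest difference between the breeds of the sow and its neighbour, which aligned over 56 columns with the substitution A39C (from A_72_P721538 to A_72_P762153) and 2 gap columns, where a base is present in 1 probe only.
COX1 A_72_P762153: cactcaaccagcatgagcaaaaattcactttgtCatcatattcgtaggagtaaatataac
COX1 A_72_P721538: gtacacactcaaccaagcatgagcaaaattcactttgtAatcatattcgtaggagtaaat

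The COX2 pair aligned over 48 columns with no gap and a single substitution, A33T, between a probe with a large and a probe with a small difference between the breeds of the sow.
COX2 A_72_P746371: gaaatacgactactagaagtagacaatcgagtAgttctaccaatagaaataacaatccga
COX2 A_72_P751248: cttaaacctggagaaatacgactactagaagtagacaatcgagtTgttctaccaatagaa

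For CYTB, 5 overlapping probes are shown, which differ at up to 2 bases and by gaps. The substitutions were C14T from A_72_P726128 to A_72_P757587 and to A_72_P749269, and A39G from A_72_P355338 to A_72_P726128.
CYTB A_72_P726128: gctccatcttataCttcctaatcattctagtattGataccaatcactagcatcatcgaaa
CYTB A_72_P355338: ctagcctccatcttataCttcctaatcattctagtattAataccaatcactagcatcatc
CYTB A_72_P757587: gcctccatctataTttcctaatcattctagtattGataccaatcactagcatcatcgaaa
CYTB A_72_P749269: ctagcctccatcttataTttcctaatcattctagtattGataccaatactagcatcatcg
CYTB A_72_P740839: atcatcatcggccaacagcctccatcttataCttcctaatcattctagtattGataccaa

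A COX3 pair (G19A), a CYTB pair with a signal that was higher with MS sows (G51A) and a bright COX1 pair (G12A, from A_72_P402906 to A_72_P724398) complete the substitutions described in the text.
COX3 A_72_P722568: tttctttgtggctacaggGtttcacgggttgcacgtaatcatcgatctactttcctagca
COX3 A_72_P759849: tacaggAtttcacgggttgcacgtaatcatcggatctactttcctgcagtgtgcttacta
CYTB A_72_P725783: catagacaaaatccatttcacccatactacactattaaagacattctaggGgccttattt
CYTB A_72_P725813: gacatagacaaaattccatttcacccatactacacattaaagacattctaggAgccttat
COX1 A_72_P724398: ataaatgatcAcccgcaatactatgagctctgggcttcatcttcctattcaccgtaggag
COX1 A_72_P402906: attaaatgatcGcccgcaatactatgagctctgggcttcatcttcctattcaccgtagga

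Further COX1 and COX3 probes with a large difference between the breeds of the sow, and the ATP8 probe, had no overlapping probe that differed by a substitution.
COX1 A_72_P752754: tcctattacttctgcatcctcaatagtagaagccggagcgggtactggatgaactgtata
COX3 A_72_P750221: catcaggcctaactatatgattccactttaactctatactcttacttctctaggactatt
ATP8 A_72_P442187: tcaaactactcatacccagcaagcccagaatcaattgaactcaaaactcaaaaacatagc

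The largest differences between fetuses of MS and LW sows lay on single probes and not on whole genes. Signals are given as log2 of the quantile-normalized intensity, and differences in log2 units. A probe was called at an adjusted p below 1%. The breed-of-sow effect is the mean of MS and LWMS fetuses minus the mean of LW and MSLW fetuses at 1 day. At d90 the signal of 27 member probes was lower and that of 4 higher with MS sows, where 3.58% and 2.90% of all probes tested were lower and higher. At d110, 19 member probes were lower and 10 higher, against 8.42% and 6.66% of all probes. Across both days, 17 members were called lower at both days, 4 were called higher at both days, none changed direction, and 36 were called at neither day. The share of all probes called at both days or at neither was not computed, so these counts only describe the members. The 17 lower probes belonged to COX1 (6), CYTB (6), COX3 (2), ATP6 (2) and COX2 (1). The split at d110 turned with the scaling: with each array scaled to its 75th percentile in place of quantile normalization, 9 members were lower and 16 higher at d110, and 26 lower and none higher at d90. The median effect over the 75 probes was -0.05 at d90 and -0.00 at d110 (-0.12 and 0.14 under that scaling), against -0.00 and 0.00 over all probes. Over the mean of both days, 13 members were higher and 23 lower, where 17.2% of all probes were called in either direction.

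COX1 probe A_72_P762153 showed the largest effect. At d90 its signal ranged from 12.06 to 15.18 in the 16 fetuses of MS sows (median 14.16), and from 15.89 to 16.51 in the 16 fetuses of LW sows (median 16.09). At d110 the range was 13.02 to 15.56 with MS sows (median 13.98) and 16.17 to 16.76 with LW sows (median 16.54). The ranges did not overlap at either day. The effect was -2.66 ± 0.27 (SE, adjusted p = 1.98e-11) at d90 and -2.22 ± 0.29 (adjusted p = 2.46e-08) at d110, so that the signal was 6.33-fold and 4.65-fold lower with MS sows. The overlapping probe A_72_P721538 carries A where A_72_P762153 carries C, and its effect was smaller, at -1.31 ± 0.08 at d90 (adjusted p = 1.86e-20) and -1.25 ± 0.08 at d110 (adjusted p = 2.29e-18). Its ranges were also apart, with 15.86 to 17.07 against 17.33 to 17.69 at d90 and 15.91 to 16.78 against 17.46 to 17.73 at d110.

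The COX2 pair differs by 1 base without a gap, and its probes moved by unequal amounts. For A_72_P746371, d110 signals ranged from 13.60 to 15.38 with MS sows (median 14.29) and from 15.51 to 16.20 with LW sows (median 16.001), with no overlap. At d90 the medians were 14.22 and 15.64, and the ranges overlapped through single low arrays, at 8.74 in MS d90 replicate 1 and 13.47 in MSLW d90 replicate 1. The effect was -2.06 ± 0.30 at d90 (adjusted p = 6.83e-07) and -1.54 ± 0.32 at d110 (adjusted p = 2.39e-04). A_72_P751248 was lower by 0.18 at d90 (-0.18 ± 0.04, adjusted p = 3.64e-04) and gave -0.02 ± 0.04 at d110 (adjusted p = 0.781). Averaged over days, the effects of the pair were -1.80 and -0.10.

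The 5 overlapping CYTB probes gave graded effects. A_72_P726128 ranged from 15.63 to 16.50 with MS sows (median 15.87) and from 16.86 to 17.17 with LW sows (median 17.05) at d90. At d110 its ranges were 16.11 to 16.54 (median 16.30) and 17.10 to 17.38 (median 17.19). These ranges were apart at both days, with effects of -1.17 ± 0.05 (adjusted p = 5.9e-28) and -0.91 ± 0.05 (adjusted p = 2.99e-21). Averaged over days, the effect was -1.04 for A_72_P726128, -0.74 for A_72_P355338, -0.44 for A_72_P740839, -0.37 for A_72_P757587 and -0.11 ± 0.03 for A_72_P749269 (adjusted p = 0.011, not called). The probes with T at the first marked base had smaller effects than A_72_P726128 with C there, while A_72_P740839, which has the same bases as A_72_P726128 at both marked places and differs from it by 1 gap column over 43 aligned columns, also had a smaller effect.

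The other substitution pairs were spread between clear gaps and none. COX3 probe A_72_P722568 was lower with MS sows by 0.40 at d90 (-0.40 ± 0.04, adjusted p = 6.31e-12) and by 0.34 at d110 (-0.34 ± 0.04, adjusted p = 1.06e-08), whereas A_72_P759849 gave -0.04 and -0.05 and was not called. CYTB probe A_72_P725783 was higher with MS sows, from 15.72 to 16.25 against 15.24 to 15.97 at d90 and from 16.28 to 17.07 against 15.72 to 16.60 at d110, ranges that overlapped at both days. Its effect was 0.36 ± 0.07 (adjusted p = 2.66e-04) and 0.57 ± 0.08 (adjusted p = 1.01e-07), and that of its neighbour A_72_P725813 was 0.08 and 0.24, neither called. The bright COX1 probe A_72_P724398 stayed between 18.31 and 18.58 in the 60 fetuses with a value, and in its pair the substitution went with no such gap, at -0.00 ± 0.02 for A_72_P724398 and 0.02 ± 0.02 for A_72_P402906. Over the 20 pairs with a substitution the median gap between the effects of the pair was 0.30 (0.01 to 1.70). The median gap was 0.09 over the 48 pairs without one, with a largest gap of 0.62. Many pairs share a probe or the same differing base, as those of the CYTB set and of COX1 A_72_P402906 do, so the pairs are not separate cases. Gap columns occurred in 54 of the 68 pairs, and the part of hybridization and of RNA level in these gaps was not tested.

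Among the remaining leading probes, COX1 A_72_P752754 had effects of -1.04 ± 0.09 at d90 and -0.999 ± 0.09 at d110 and COX3 A_72_P750221 of -0.84 ± 0.06 and -0.59 ± 0.07. The ranges of both were apart at d90 and overlapped at d110. CYTB A_72_P355338 (-0.82 and -0.67), COX1 A_72_P735713 (-0.50 and -0.44) and CYTB A_72_P740839 (-0.44 and -0.44) were apart at both days. In all, 6 members had ranges of MS-sow and LW-sow fetuses that were apart at both days in the same direction, 3 of COX1 and 3 of CYTB, all lower with MS sows, where 0.0966% of all probes (41 probes) were apart in this way. The 3 CYTB probes overlap one another, as do COX1 A_72_P762153 and A_72_P721538. ATP6, with 9 probes, had no effect below -0.29 at either day, and ATP8 was called at d90 (-0.20 ± 0.05, adjusted p = 0.0077) with 0.01 ± 0.06 at d110.

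Each probe was then set against the median of the other kept probes of its gene on the same array. A shift common to all probes of an array cancels in this way. Quantile normalization can move probes of unlike brightness by unequal amounts, and such differences do not cancel. This was possible for 74 members, ATP8 having a single probe. Relative to the other probes of their gene, 30 members were higher and 23 lower with MS sows, where 7.09% of the 10986 probes in this comparison were called. COX1 A_72_P762153 (-2.38 ± 0.20, adjusted p = 1.44e-14), COX2 A_72_P746371 (-1.79 ± 0.22, adjusted p = 8.77e-09) and CYTB A_72_P726128 (-1.28 ± 0.05, adjusted p = 7.55e-29) had the lowest values of their genes. The same comparison for the breed of the sire called no member, where 7.21% of the probes were called, and 9 members had an unadjusted p below 0.05. These values show unequal change among probes of 1 gene.

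The arrays lay on 8 slides of 6 to 8 groups each, and the sow effect of the leading probes was seen within each slide. For COX1 A_72_P762153 the mean of MS-sow fetuses was below that of LW-sow fetuses on 8 of 8 slides, by -3.99 to -1.24. Its MS-sow signal moved with the slide, with means of 12.14 to 13.76 on slides 1, 2, 5 and 6 and 14.32 to 15.07 on slides 3, 4, 7 and 8. The LW-sow means moved less but in the same direction, with 16.07 to 16.18 and 16.31 to 16.59 on these slides. COX2 A_72_P746371 gave -2.81 to -1.15, with its lowest means for both breeds of the sow on the same slides 1, 2, 5 and 6. CYTB A_72_P726128 gave the narrower range of -1.19 to -0.88. The higher CYTB probe A_72_P725783 was higher with MS sows on 8 of 8 slides, by 0.31 to 0.56. With the slide as a fixed block, the effects averaged over days were -2.37 for COX1 A_72_P762153 and -1.77 for COX2 A_72_P746371.

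One crossbred fetus lay apart from its group on these probes. On 10 of the 10 leading sow probes, LWMS d90 replicate 6 was the LWMS d90 fetus nearest to those of LW sows. Its COX1 A_72_P721538 signal was 17.07, against 15.87 to 16.44 in the other LWMS d90 fetuses and at least 17.33 with LW sows, and its CYTB A_72_P726128 signal was 16.50, against 15.63 to 15.90 and at least 16.86. For COX1 A_72_P762153 it had 15.18, against 12.13 to 14.57 and at least 15.89. Without this fetus, 28 members were lower and 4 higher with MS sows at d90, and the averaged effect of COX1 A_72_P762153 was -2.49.

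The reciprocal crosses carry the same pair of breeds in their autosomes and exchange the breed of the sow, along with the sex chromosomes of these male fetuses. LWMS minus MSLW called 18 members lower and none higher at d90, where 0.351% of all probes were lower, and 13 lower and none higher at d110, where 0.542% were lower. COX1 A_72_P762153 differed by -2.53 (adjusted p = 5.36e-06) and -2.41 (adjusted p = 2.48e-04), and CYTB A_72_P726128 by -1.20 (adjusted p = 9.64e-21) and -1.06 (adjusted p = 7.08e-16). COX2 A_72_P746371 differed by -1.62 (adjusted p = 0.0446) and -1.79 (adjusted p = 0.0281) and was not called in this smaller comparison. The crosses and the purebred fetuses both enter the sow effect, so these are not separate samples.

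Between purebred MS and LW fetuses, 20 members were lower and 4 higher in MS at d90, where 6.61% and 6.23% of all probes were called. By d110 the balance of calls was 10 lower and 22 higher, against 15.2% and 13.7% of all probes. CYTB provided 12 of the 22 probes that were higher in MS at d110, COX1 4, COX3 3, COX2 2 and ATP8 1. The breed of the sire, as the mean of MS and MSLW minus the mean of LW and LWMS, gave no member call at d90, where 5.14% of all probes were called and no member had an unadjusted p below 0.05. At d110, 16 members were higher with MS sires and none lower, where 5.93% of all probes were higher. They were 12 CYTB, 2 COX3, 1 COX2 and the ATP8 probe, with differences of 0.17 to 0.35. The scaling of the arrays moved these d110 counts: scaled to the 75th percentile, MS fetuses exceeded LW fetuses on 55 members and fell below them on 3, and 58 were higher with MS sires.

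Between d90 and d110 the signal of most member probes rose. The 1 probe of ATP8, a small subunit in the membrane part of ATP synthase, rose most. Averaged over the 4 genotypes, 61 of 75 members were higher and 1 lower at d110, where 37.3% of all probes were higher and 35.0% lower. The median change was 0.27, against 0.04 over all probes tested. Within genotypes, LW fetuses had 40 members that were higher at d110, MS fetuses 55, LWMS fetuses 49 and MSLW fetuses 43, where 21.8%, 28.6%, 25.1% and 20.8% of all probes were higher. The median changes of the members were 0.21, 0.37, 0.29 and 0.23. Under scaling to the 75th percentile these counts were 71, 75, 73 and 73, and the medians 0.47, 1.09, 0.82 and 0.75. RNA came from whole muscle, in which a change in the share of muscle fibres and a change in RNA per fibre cannot be told apart.

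For ATP8 probe A_72_P442187 LW fetuses had a d90 signal of 15.57 ± 0.19 (SD, n = 8), MS fetuses 15.41 ± 0.13 (n = 8), LWMS fetuses 15.40 ± 0.19 (n = 8) and MSLW fetuses 15.65 ± 0.16 (n = 8). At d110 it was 16.36 ± 0.18 (n = 9), 16.61 ± 0.09 (n = 7), 16.47 ± 0.09 (n = 8) and 16.71 ± 0.06 (n = 5) in the same order. No d110 fetus, from 16.13 upwards, lay as low as the highest d90 fetus at 15.90. In order of level the groups ran from LWMS and MS over LW to MSLW at d90 and from LW over LWMS and MS to MSLW at d110, and neighbours in this order differed by less than the SD of one of them, except for LWMS and MS and for MS and MSLW at d110. The change was 1.03 ± 0.04 (adjusted p = 3.16e-31), or 2.05-fold, with 0.79 for LW, 1.20 for MS, 1.08 for LWMS and 1.06 for MSLW fetuses.

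Among the complex IV core subunits, the COX3 changes ran from -0.04 ± 0.03 for A_72_P723993 (adjusted p = 0.22) to 0.79 ± 0.04 for A_72_P760010 (adjusted p = 6.29e-24). The d90 signal of A_72_P760010 lay between 14.88 and 15.56 over all groups and its d110 signal between 15.51 and 16.27, with a small overlap. COX1 changes ran from -0.09 ± 0.02 for A_72_P736144 (adjusted p = 2.21e-04), the 1 member called lower, to 0.64 ± 0.06 for A_72_P753960 (adjusted p = 1.43e-15). COX2 changes ran from -0.02 ± 0.03 for A_72_P442181 (adjusted p = 0.501) to 0.67 ± 0.22 for A_72_P746371 (adjusted p = 0.00524), the probe with the widest spread between arrays. Of the COX1, COX2 and COX3 probes, 19 of 25, 4 of 5 and 11 of 14 rose.

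In complex III, 19 of 21 CYTB probes rose and none fell, with a median of 0.56 and a largest change of 0.77 ± 0.06 for A_72_P733846 (adjusted p = 8.69e-19). The smallest was 0.07 ± 0.02 for A_72_P740839 (adjusted p = 0.0136, not called). In complex V, 7 of 9 ATP6 probes rose by less than ATP8, with the largest change at 0.25 ± 0.03 for A_72_P721760 (adjusted p = 1.57e-12) and the smallest at 0.04 ± 0.02 for A_72_P736534 (adjusted p = 0.0983). The range of the ATP6 probes was the narrowest among the 5 genes with several probes, and it did not reach the ATP8 change. Relative to the other probes of their gene, 30 members rose more and 33 less, where 37.7% of the probes compared were called.

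The size of the change varied with the brightness of the probe. Over the 75 probes, mean signal and age change had a Pearson correlation of -0.60 and a Spearman correlation of -0.81, a description across probes that share arrays and in part sequence. The 16 probes with a mean signal of 18 or above had a median change of 0.09, the 28 between 17 and 18 a median of 0.20, the 20 between 16 and 17 a median of 0.58 and the 11 below 16 a median of 0.67. Other probes in the same bins did not show this order, with medians of -0.07, -0.13, -0.30 and 0.04. The bin below 16 held 41669 other probes, most of those kept, and these were not matched in brightness to the 11 members there. No member spot was saturated by the mark of the scanner software. Overlapping same-strand probes had close age changes, with a median gap of 0.07 and a largest of 0.42. Under scaling to the 75th percentile, all 75 members were higher at d110 (median 0.77, from 0.42 to 1.56, against a median of 0.09 over all probes), A_72_P736144, A_72_P442181 and A_72_P723993 included, and the Spearman correlation with brightness was -0.72. Whether a brightness limit of the array holds down the change of the brightest probes was not tested.

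A COX1 probe on the opposite strand gave a far dimmer signal with a change of like direction. O13550 is the reverse complement of A_72_P730653 over 46 bases, which are in capitals here.
COX1 A_72_P730653: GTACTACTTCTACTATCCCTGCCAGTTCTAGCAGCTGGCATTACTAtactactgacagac
COX1 O13550: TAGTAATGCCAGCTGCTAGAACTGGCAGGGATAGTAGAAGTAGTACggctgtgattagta
The mean signal of O13550 was 8.56 (7.97 to 9.36) and that of A_72_P730653 was 17.38 (16.76 to 18.09), both well above background on 61 arrays, and signals of different probes also depend on the probe. O13550 rose by 0.46 ± 0.06 (adjusted p = 1.21e-10) and A_72_P730653 by 0.59 ± 0.04 (adjusted p = 5.38e-18). Neither was called for the breed of the sow.

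The rise with age was larger in MS than in LW fetuses for 12 members and smaller for none. Over all probes, 2.56% had an age change called as more positive in MS, which includes any that fell less in MS. The 12 members were 7 CYTB, 2 COX2, 2 COX3 probes and ATP8. COX3 A_72_P760010 rose by 0.55 in LW and 1.09 in MS fetuses (difference 0.54 ± 0.12, adjusted p = 0.00131). CYTB A_72_P733846 rose by 0.49 and 1.14 (difference 0.65 ± 0.15, adjusted p = 0.00248), CYTB A_72_P726128 changed by 0.16 (not called) and rose by 0.53 (difference 0.37 ± 0.09, adjusted p = 0.00525), and ATP8 rose by 0.79 and 1.20 (difference 0.40 ± 0.11, adjusted p = 0.00877). The count fell to 7 without MS d90 replicate 1 and to 6 when LW and MS fetuses were fitted alone, and it was 53 under scaling to the 75th percentile. A change of the sow effect with age was called for 1 member, COX1 A_72_P739136 (-0.43 at d90 and -0.21 at d110, adjusted p = 0.00718), named here after its value was seen, where 2.91% of all probes were called. Without LWMS d90 replicate 6, 3 members were called, 2 without MSLW d90 replicate 1, LW d90 replicate 8 or LW d110 replicate 9, and none without MSLW d90 replicate 8 or MSLW d110 replicate 3 or 5. A change of the sire effect with age was called for no member, where 0.497% of all probes were called and 21 members had an unadjusted p below 0.05.

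Nuclear genes for subunits of the same complexes were taken from fixed lists, each gene by its brightest probe. The age counts in this and the next 2 paragraphs stand beside 37.3% of all probes higher and 35.0% lower at d110. In complex III, 9 of 9 genes rose between d90 and d110 with a median of 1.25. The Rieske iron-sulfur protein UQCRFS1 rose by 1.98 ± 0.08, cytochrome c1 (CYC1) by 1.51 ± 0.05 and the core protein UQCRC2 by 1.41 ± 0.08. In complex V, 15 of 16 brightest probes rose and 1 fell with a median of 0.81, led by the c-ring gene ATP5G1 (1.33 ± 0.04), the gamma subunit ATP5C1 (1.17 ± 0.03) and the catalytic beta subunit ATP5B (1.13 ± 0.04), while ATP5G2, another c-ring gene, was called lower on its brightest probe (-0.11 ± 0.04, adjusted p = 0.00954) and higher on the other of its 2 probes.

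Complex IV was less uniform, with 9 genes that rose, 2 that fell and 2 not called of 13 measured, and a median of 0.64. The muscle isoform COX7A1 rose by 1.91 ± 0.06 (adjusted p = 1.67e-36), from 14.89 ± 0.21 in LW and 15.19 ± 0.33 in MS fetuses at d90 to 16.85 ± 0.18 and 17.18 ± 0.17 at d110, and all 3 of its probes were called higher. The broadly expressed COX7A2 gave -0.01 ± 0.03 on its brightest probe (adjusted p = 0.882), but 5 of its 6 probes were called higher and none lower. COX6A1, the liver-type isoform, fell by 0.89 (-0.89 ± 0.04, adjusted p = 5.01e-29), with 6 of its 8 probes called lower and none higher, and its muscle counterpart COX6A2 was not measured here. COX4I1 rose by 1.21 ± 0.06 and COX4I2 gave -0.13 ± 0.14 (adjusted p = 0.363). COX5A rose by 1.17 ± 0.09 and COX7A2L, which takes part in the assembly of supercomplexes, fell by 0.35 on the brighter of its 2 probes (-0.35 ± 0.04), the other not being called.

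Of 7 measured genes for complex IV assembly, 6 rose and none fell, among them COX10 (1.59 ± 0.15), TACO1 (1.34 ± 0.04), an activator of COX1 translation, and SURF1 (1.06 ± 0.05). Of 6 measured genes for mitochondrial transcription and RNA stability, 4 rose and none fell, with LRPPRC (1.32 ± 0.05) and its partner SLIRP (0.52 ± 0.05), which bind mitochondrial mRNA, and the tRNA-processing enzyme ELAC2 (0.74 ± 0.11). The medians were 0.88 and 0.48. For the breed of the sow at d90, complex III had 1 of 9 genes higher and 1 lower with MS sows, complex IV 1 of 13 lower, complex V 1 of 16 higher, the assembly list 1 of 7 higher and the transcription list none of 6, where 2.90% of all probes were higher and 3.58% lower. At d110, 4 of 9, 1 of 13, 3 of 16, 2 of 7 and none of 6 were higher in the same order, with 1 complex IV gene lower, where 6.66% and 8.42% of all probes were higher and lower. COX7B, with 1 probe and named after its value was seen, was lower with MS sows (mean of both days -0.95 ± 0.05, adjusted p = 1.22e-22). It was at 14.83 ± 0.07 in LW and 13.85 ± 0.21 in MS fetuses at d90 and 15.39 ± 0.14 and 14.62 ± 0.26 at d110. In the crosses it was 13.90 in LWMS and 14.95 in MSLW fetuses at d90, and 14.53 and 15.54 at d110. These male fetuses also have their X chromosome from the sow. The chromosome of COX7B was not read here, and the cause of its difference was not tested.

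The mitochondrial genes of complex I had 52 kept probes. Of these, 51 rose with age and none fell (median 0.74, from 0.18 to 1.44), where 37.3% of all probes rose and 35.0% fell. For the breed of the sow, 33 were lower and 10 higher with MS sows at d90, where 3.58% and 2.90% of all probes were. At d110, 14 were lower and 14 higher, against 8.42% and 6.66% of all probes. The ranges of 6 probes were apart at both days, against 0.0966% of all probes. With MS sires, 31 were higher at d110 and none lower, where 5.93% of all probes were higher. The effects of the breed of the sow on these probes ran from -3.27 to 0.74 at d90, a range of the same kind as that of the 75 members (-2.66 to 0.36).

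Markers of other cells moved with age too. All 4 fibroblast markers fell (COL1A1 -1.44, COL3A1 -1.70, DCN -1.53 and PDGFRA -0.80). The log2 of their summed signals ranged from 18.16 to 18.55 at d90 and from 16.17 to 17.50 at d110. All sums below are also given as log2 of the summed signals. The brightest markers weigh most in them, with mean log2 signals of 16.12 for COL3A1 and 6.07 for PDGFRA. Of 4 endothelial markers 3 fell and 1 rose, with summed signals of 14.44 to 15.02 and 13.73 to 14.28. Of 7 skeletal muscle markers 4 rose and 1 fell, with summed signals of 20.70 to 21.10 and 21.04 to 21.19. Both cardiac markers on the array rose (NPPA 0.63 and TNNI3 0.50). Of 4 adipocyte markers 1 rose and 2 fell, of 3 leukocyte markers tested 1 fell, and of 2 erythroid markers on the array 1 rose. The T cell marker CD3E was well above background on 3 of 61 arrays. The liver marker APOA1 fell by 1.19 while ALB rose. For the breed of the sow (mean of both days), the muscle markers MB (0.51) and CKM (0.13) were higher and TNNT3 (-0.11) lower with MS sows, and the endothelial marker KDR (-0.59), the fibroblast markers COL1A1 (-0.23) and COL3A1 (-0.20) and the erythroid marker HBB (-0.25) were lower. Within each day, the summed signals of MS-sow and LW-sow fetuses overlapped for every list. At d110, endothelial sums ranged from 13.73 to 14.09 with MS sows and from 14.00 to 14.28 with LW sows, and fibroblast sums from 16.17 to 17.29 and from 16.67 to 17.50. The part of these cells in the changes of the member probes was not tested.

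Once the group means were removed, the 5 genes whose probes varied most like a member gene over the 61 arrays were compared. They included mitochondrial genes of complex I for COX1, COX3 and ATP8, and none of these for COX2, CYTB and ATP6. As a description, the Pearson correlation with the median of the member's probes was highest for ND1 with ATP8 (0.74) and with COX3 (0.70), and for ND6 with COX1 (0.54). For COX2 it was HSPC159 (0.82), for CYTB LOC396781 (0.77) and LOC100288871 (0.76), and for ATP6 AK350700 (0.62). The LOC100288871 probe shares a run of bases with a CYTB probe. The COX2 median rested on 5 probes of unlike brightness and shifted where spots were missing. In MSLW d90 it fell to 15.93, although A_72_P751248 had no value below 16.585 in the 7 fetuses with a value. All flagged member spots lay on MSLW d90 replicate 2, and the part of that array in the COX2 correlation was not tested. Among the member genes, the highest correlation was between ATP8 and COX3 (0.64) and the lowest between ATP6 and CYTB (0.02), the arrays being shared by all these values.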

How the data were processed

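Total RNA, DNase treated, was amplified and labelled with Cy3 and hybridized to one-colour Agilent arrays. The authors deposited the scanner output of 61 arrays as intensity per spot (Agilent Feature Extraction 10.10.1.1, background-corrected signal, not normalized between arrays) and a table of log2 values, which the authors had quantile normalized with limma (44368 spots). The log2 table was used as an alternative only. Probe positions in the mitochondrial genome were not analysed here.

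From the 60306 spots that were not controls, non-uniform spots were set to missing, the background-corrected signal was quantile normalized, log2 transformed and averaged over spots of a probe. Probes entered the tests when the software marked them well above background on 80% or more of a group's arrays, in any group (42436 of 60305 probes). Group means of the 8 groups were fitted with limma 3.58.1 in R 4.3.3, contrasts were tested with two-sided moderated tests, and p-values were adjusted by Benjamini-Hochberg over all kept probes, with a threshold of 1%. A probe minus the median of the other probes of its gene was fitted likewise over 10986 probes of genes with 3 or more kept probes. The study's mixed model used the sow as a random effect, which the labels used here do not give. Overlaps between probes were found by global alignment without a penalty for gaps at the ends, with Biopython 1.88. The number of arrays limits the precision.

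Groups came from the labels. The members and lists were chosen with earlier results of these data known. Named were, per gene, the brightest probe, the probes with the largest and smallest age change and the probe with the largest sow effect relative to its gene, then up to 10 probes called for the sow at both days, by size. For lists, up to 3 genes with the largest called age change and the isoform pairs of COX4I, COX6A and COX7A were named, and for likeness up to 5 genes. On simulated data with 200 of 42436 probes changed by 1 log2 unit, the sow test recovered 96.0% at d90 with 0 false calls. At d110 it recovered 93.5% with 1 false call. The within-gene test over 10986 probes recovered 98.5%, with 2 false calls. Those false calls were counted only outside the genes that held a changed probe. The simulated noise was independent for each probe and array, without litters, slides or overlapping probes, so false calls from these were not measured. Alternatives were the scaling, the background correction, the filter, the flags, the slide as a block, no moderation, groups fitted alone and arrays left out.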

Additional observations from a re-analysis of the deposited data

Results flagged for a closer look

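A fetus was marked where its highest or lowest signal lay far from the rest of its group by Dixon's test. This occurred 26 times over 192 combinations of 24 named probes and 8 groups, where chance gives about 1 in 20. The flags gathered in few fetuses. LWMS d90 replicate 6 was highest of its group on COX3 A_72_P722568 (18.65), CYTB A_72_P726128 (16.50), ATP6 A_72_P722198 (17.57), COX1 A_72_P721538 (17.07), CYTB A_72_P355338 (16.97) and COX1 A_72_P735713 (17.28), each time towards the fetuses of LW sows. LW d90 replicate 8 was lowest on COX1 A_72_P736144 (17.82), COX2 A_72_P442181 (17.84), COX3 A_72_P722568 (18.53), CYTB A_72_P729443 (17.66) and ATP6 A_72_P722198 (17.42). LW d110 replicate 9 was lowest on COX1 A_72_P736144 (17.66), CYTB A_72_P740839 (17.43), ATP6 A_72_P736534 (17.79) and COX1 A_72_P735713 (17.56) and highest on CYTB A_72_P725783 (16.60). MSLW d90 replicate 8 was lowest on COX2 A_72_P442181 (17.71) and COX3 A_72_P722568 (18.42).

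The remaining marks were single. COX2 A_72_P746371 was low in MS d90 replicate 1 (8.74) and in MSLW d90 replicate 1 (13.47), and COX1 A_72_P752754 in LWMS d110 replicate 3 (15.08). High signals were found for CYTB A_72_P729443 in MS d90 replicate 2 (18.15), ATP6 A_72_P734087 in MSLW d110 replicate 3 (18.25), ATP6 A_72_P721760 in LWMS d110 replicate 8 (17.93), ATP6 A_72_P722198 in MSLW d90 replicate 7 (17.73) and ATP8 A_72_P442187 in MS d110 replicate 2 (16.80).

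By the interaction test, the rise with age was larger in MS than in LW fetuses for COX3 A_72_P760010 (0.54), CYTB A_72_P733846 (0.65), CYTB A_72_P726128 (0.37) and ATP8 A_72_P442187 (0.40).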

How the results depend on the processing

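The counts of member probes called for age, for the breed of the sow at each day, for MS against LW at d90, for the reciprocal crosses and for probes against their gene stayed within 1.5 times under each alternative run, taken over both directions. By direction, scaling to the 75th percentile turned the d110 sow split from 19 lower and 10 higher to 9 and 16, left none higher for the sow or for MS against LW at d90 (4 each before) and gave 71 to 75 members higher with age per genotype. The same scaling moved 4 totals, to 58 for MS against LW at d110, 53 for the difference of the age change between MS and LW, 58 for the sire at d110 and 12 for the sow by age, and turned the age change of COX1 A_72_P736144 (0.42), COX2 A_72_P442181 (0.51) and COX3 A_72_P723993 (0.47) to a rise. The difference of the age change between MS and LW was called for 7 members with no filter, 6 with non-uniform spots kept and 6 with LW and MS fitted alone. The sow by age count was 0 with the median signal, the deposited values, no filter and non-uniform spots kept, 3 with the slide as a block and 2 without moderation. Leaving out single arrays (the 5 MSLW d110 arrays in turn and, chosen after seeing the data, LWMS d90 replicate 6, MSLW d90 replicates 1, 2 and 8, MS d90 replicate 1, LW d90 replicate 8 and LW d110 replicate 9) gave 7 to 14 for the difference between MS and LW, 0 to 3 for the sow by age, 11 to 19 for the sire at d110, 61 to 64 for age, 30 to 33 and 28 to 29 for the sow, and 15 to 19 and 11 to 14 for the crosses. The causes were not tested. Purebred and crossbred fetuses shared litters, but no analysis paired by litter was possible because the labels do not give the sow. The breed of the sire differed within litters, whereas the breed of the sow differed only between litters. The p-values for the sow therefore treat littermates as independent samples.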

Other observations

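Outside the 75 probes, 2 further probes shared a run of at least 20 bases with a member. O2494, named MT-ATP6, shared with ATP6 A_72_P442189 and gave 0.03 ± 0.03 with age (adjusted p = 0.237) and -0.02 ± 0.03 for the breed of the sow (adjusted p = 0.624). O4190, named LOC100288871, shared with CYTB A_72_P721121. It rose with age by 0.51 ± 0.04 (adjusted p = 1.41e-16) and was higher with MS sows by 0.33 ± 0.04 (adjusted p = 9.78e-09), while CYTB A_72_P721121 was higher with MS sows by 0.37 ± 0.04 (adjusted p = 1.66e-09). LOC100288871 is also 1 of the genes most like CYTB over the arrays.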
